A study of Mus musculus with 8 samples.

Results

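Splicing factors and nuclear ribonucleoproteins were taken as the probes whose gene symbol names an SR protein (Srsf), a heterogeneous nuclear ribonucleoprotein (Hnrnp), a small nuclear ribonucleoprotein protein (Snrp), a subunit of SF3a, SF3b or U2AF, a pre-mRNA processing factor (Prpf) or a muscleblind-like protein (Mbnl). The names matched 65 of the 21582 probes, for 59 genes, and 62 of these probes, for 56 genes, had a computable ratio on at least 3 arrays of each dye orientation, as had 15345 probes in all. The remaining 3 probes were Prpf38b (AK003895), Hnrnpr (BC004679) and the pseudogene Snrp1c-ps2 (X79214), which had 1 or 2 ratios in the Cy5 orientation. The members were measured more completely than the array as a whole: 49 of the 62 had a ratio on all 8 arrays, 79.0% against 68.3% of all tested probes.

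The RNA came from neurospheres, floating clusters of neural progenitors and their progeny, grown from mouse cortex at gestational day 12.5. Ethanol-exposed neurospheres received 320 mg/dl ethanol for 5 days in serum-free medium with basic FGF, EGF, LIF, insulin, transferrin, selenium, heparin and progesterone, and were then differentiated for 3 days without ethanol by taking away EGF and LIF. Control neurospheres were differentiated by the same withdrawal with no ethanol, so that FGF remained for both, and the strain is not given in the labels. Total RNA of both kinds was hybridised together on 8 2-colour arrays. Ethanol-exposed RNA carried Cy3 on replicates 1 to 4 and Cy5 on replicates 5 to 8. No label ties an array to a culture of its own, and the p-values therefore rest on array-to-array spread that may be technical in origin.

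Each probe had 1 deposited log2 ratio per array, centred here on the array's median. The labels do not settle which channel is the numerator, because the sample records and the design text order the channels differently. A limma model across all tested probes therefore gave each probe a pair of values. The shared part is the mean of the Cy3-orientation and Cy5-orientation means, and it is the ethanol difference if the deposited ratios had already been turned for the dye. If they had not been turned, it holds a dye bias of the probe and not the ethanol difference. The turning part is the distance from that mean up to the Cy5-orientation mean, and it is the ethanol difference if the ratios had not been turned. If they had been turned, the turning part holds the dye bias instead. Which part is which cannot be told from the labels. Every sign below is the sign as deposited, and no positive or negative value says whether ethanol-exposed cells held more or less of a transcript. In such bulk RNA, fewer cells of a type and less RNA per cell cannot be told apart either. The ratios give no levels, so that the cell type on the label could not be checked by level. Of the marker lists, 8 of 11 astrocyte probes could be fitted, with shared parts from -1.83 to 0.01 and a median of -0.84, and 4 of 7 neuronal probes, with values from -1.88 to 0.42 and a median of -0.65. All 9 neural progenitor probes were fitted, with shared parts from -0.57 to 1.31 and a median of 0.53. The oligodendrocyte lineage list had a median of 0.16 (7 probes) and the microglia list one of -0.52 (3 probes). No marker of these lists passed the adjusted threshold in the shared part, and neither did any other tested probe. Turning parts ran from -0.77 to 1.25 for astrocyte, -0.37 to 0.89 for neuronal and -0.28 to 3.82 for progenitor probes, and 0 of these passed. The astrocyte and neuronal medians lay below those of every splicing factor class but Mbnl, and the part of these cell types in the results was not tested.

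Splicing removes introns from pre-mRNA. The U1 small nuclear ribonucleoprotein (snRNP) binds the start of the intron, U2AF and then the U2 snRNP with SF3a and SF3b bind near its end, and the U4, U5 and U6 particles complete the spliceosome with the Prpf proteins. SR proteins mostly promote the use of nearby exons, many hnRNPs oppose it, and the balance changes which isoforms a cell makes. In developing cortex, splicing programmes change as progenitors become neurons, and the muscleblind proteins are among the factors that drive the switch to mature isoforms.

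Promoter windows are shown for 4 members, as the DNA from which these transcripts start. They had the smallest p in the shared part on each side among the members with a RefSeq window at hand. Mbnl2 and Hnrnph2 had negative values, and Srsf6 and Snrpa1 positive ones. Each run covers 250 bases before to 50 bases after an annotated start, from RefSeq on GRCm38.p6, plus strand. The windows are chr14:120275419-120275718 for Mbnl2, chrX:134600929-134601228 for Hnrnph2, chr2:162931258-162931557 for Srsf6 and chr7:66060086-66060385 for Snrpa1. Capitals mark matches on either strand to the GC box (GGGCGG), the CCAAT box (CCAAT), the ETS core (CCGGAAG) or the TATA box (TATAAA).
Mbnl2: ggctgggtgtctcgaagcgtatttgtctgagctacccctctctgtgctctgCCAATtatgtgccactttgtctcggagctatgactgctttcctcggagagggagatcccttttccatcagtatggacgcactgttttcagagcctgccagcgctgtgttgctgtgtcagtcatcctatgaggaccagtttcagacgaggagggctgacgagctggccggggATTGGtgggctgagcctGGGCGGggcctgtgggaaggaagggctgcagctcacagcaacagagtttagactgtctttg
Hnrnph2: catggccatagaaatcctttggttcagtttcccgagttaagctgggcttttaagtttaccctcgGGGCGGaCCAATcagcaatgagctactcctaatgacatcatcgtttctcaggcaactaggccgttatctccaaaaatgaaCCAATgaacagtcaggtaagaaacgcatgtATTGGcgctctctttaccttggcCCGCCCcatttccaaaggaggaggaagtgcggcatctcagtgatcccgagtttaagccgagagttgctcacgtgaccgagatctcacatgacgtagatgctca
Srsf6: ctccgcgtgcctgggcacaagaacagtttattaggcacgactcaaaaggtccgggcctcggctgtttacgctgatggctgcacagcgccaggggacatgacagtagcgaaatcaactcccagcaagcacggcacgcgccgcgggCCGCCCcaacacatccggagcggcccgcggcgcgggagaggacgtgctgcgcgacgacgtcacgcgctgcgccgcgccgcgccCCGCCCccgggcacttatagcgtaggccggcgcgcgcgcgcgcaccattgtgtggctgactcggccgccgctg
Snrpa1: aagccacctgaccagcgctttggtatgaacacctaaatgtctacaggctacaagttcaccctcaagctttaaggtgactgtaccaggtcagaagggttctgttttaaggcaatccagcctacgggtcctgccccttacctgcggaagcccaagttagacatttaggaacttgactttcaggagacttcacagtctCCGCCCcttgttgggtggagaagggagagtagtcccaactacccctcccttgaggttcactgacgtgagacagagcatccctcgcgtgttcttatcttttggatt

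The Mbnl2 window held 1 GC box and 2 CCAAT boxes, the Hnrnph2 window 2 GC boxes and 3 CCAAT boxes, the Srsf6 window 2 GC boxes and the Snrpa1 window 1 GC box. No ETS core or TATA box lay in these 4 windows. RefSeq windows were at hand for 49 member genes, 66 windows in all. A GC box lay in 60.6% of the member windows against 35.7% of all 32851 windows, an ETS core in 28.8% against 8.86%, a CCAAT box in 47.0% against 37.4% and a TATA box in 12.1% against 13.6%. The members' windows were also richer in G and C, with a median of 59.0% against 52.7%. The GC box lay in 80.0% of the 30 windows of SR protein and hnRNP genes and in 35.7% of the 14 windows of snRNP protein genes, whose median G and C contents were 65.7% and 53.5%, and this difference was not tested. These letter matches describe the windows and are not evidence of binding.

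No splicing factor passed an adjusted p of 0.05 in limma, in the shared or the turning part. Over all tested probes, 0.0% passed in the shared part and 1.56% in the turning part. At an unadjusted p under 0.05, 11 of the 62 members passed in the shared part, which is 17.7% against 13.9% of all probes. Of these, 6 were positive, 9.68% of members against 4.88% of all probes, and 5 negative, 8.06% against 9.01%. In the turning part 3 of 62 passed, 4.84% against 13.8%, with 2 positive (3.23% against 8.69%) and 1 negative (1.61% against 5.14%). A positive turning part, passing or not, was found in 45.2% of members and 56.9% of all probes. The turning count was 0 of 52 members fitted without replicate 5, and 1 of 59, 56 and 52 without replicates 1, 3 and 8. The negative shared count was 3 of 52 and 3 of 53 without replicates 5 and 7. Members already lacking a ratio in the same orientation could not be fitted there. Prpf4 and Srsf1 probe AK017754, which passed in the turning part, were among them without replicate 5 or 8. A lower count is therefore partly a loss of fitted probes. The share of all probes with those arrays left out is not given here. The median member had a shared part of 0.09 and a turning part of -0.02, against -0.06 and 0.11 for all tested probes. A shared part of at least 2-fold was found in 9 members, 14.5% against 15.2%, and a turning part of that size in 4, 6.45% against 15.6%. The 95% interval of a member's shared part reached a median of 0.83 log2 units to each side, before any adjustment for the number of probes.

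**Figure D1:**
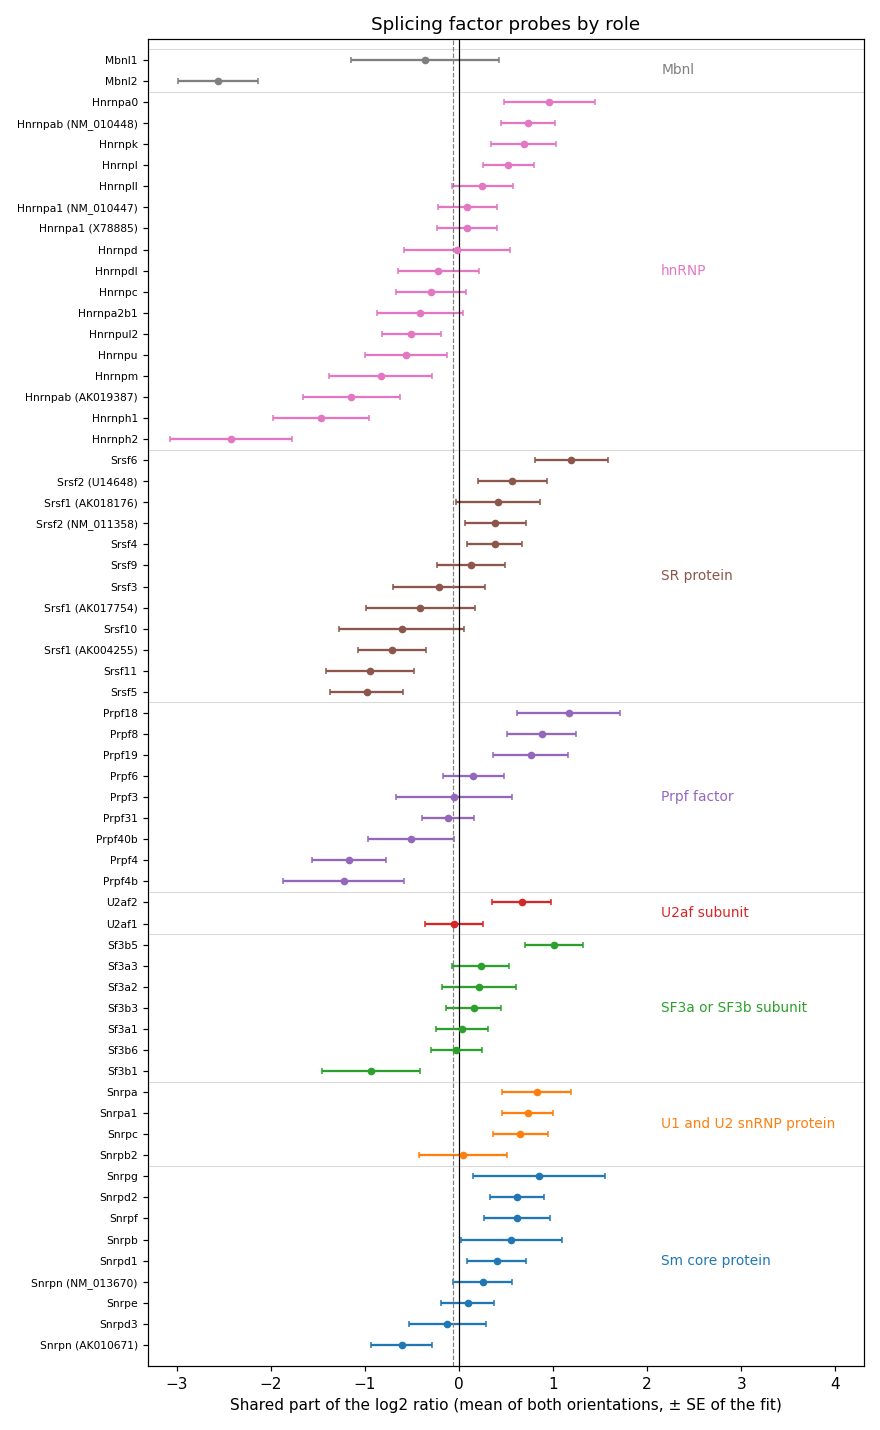
Shared part of the log2 ratio for the 62 tested probes, grouped by role (points, with bars of 1 SE from the limma fit). The dashed line is the median of all tested probes, -0.06. The 4 U1 and U2 snRNP probes and 7 of the 9 Sm core probes lie right of 0, Mbnl2 and Hnrnph2 lie farthest left, and SR proteins and hnRNPs spread to both sides.

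The snRNP proteins lay mostly on the positive side of the shared part. Of the 13 probes for Sm core, U1 and U2 proteins, 11 were positive, with a median of 0.56, while 46.1% of all tested probes were positive. In the limma fit 2 of the 13 had an unadjusted p under 0.05, both positive, and 0 passed adjustment. That is 15.4% against 13.9% of all probes in either direction, near the background, and 4.88% of all probes passed on the positive side. The Sm core proteins form a ring on spliceosomal RNAs such as U1 and U2, and the median of their probes was 0.40. The count of positive probes was 10 of 13 with the values as deposited and 8 of 12 without replicate 2.

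Snrpa1 (NM_021336), the U2 A' protein, read 0.78, 0.38, 1.16 and 0.69 on replicates 1 to 4 and 1.19, 0.70, 0.70 and 0.24 on replicates 5 to 8. All 8 arrays were positive, and the orientations overlapped throughout. Its shared part was 0.73 ± 0.27 (SE, n = 8, limma adjusted p = 0.292), and its turning part was -0.02 ± 0.27. Snrpa (NM_015782), the U1 A protein that binds a loop of U1 RNA, was the other snRNP probe positive on every array, at 0.30 to 0.65 on 7 arrays and 3.15 on replicate 5. The fit gave it a shared part of 0.83 ± 0.37 (limma adjusted p = 0.356). Snrpc (NM_011432), the U1 C protein that steadies pairing at the start of the intron, read between 0.00 and 1.35 and had a shared part of 0.65 ± 0.30 (limma adjusted p = 0.363). Snrpb2 (X63020), the U2 B'' protein, read from -1.38 to 2.58 and had a shared part of 0.04 ± 0.47. The median of these 4 U1 and U2 probes was positive on each of the 8 arrays, from 0.25 to 0.94.

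Among the Sm proteins, Snrpd1 (NM_009226) sat nearest the class median at 0.40 ± 0.31 (SE, n = 8). Snrpd2 and Snrpf had shared parts of 0.62 ± 0.29 and 0.61 ± 0.35, and Snrpd3, Snrpe and Snrpb of -0.12 ± 0.41, 0.09 ± 0.28 and 0.56 ± 0.54, none with an unadjusted p under 0.05. Snrpg had the highest shared part of the class, 0.85 ± 0.70, with 1 array, replicate 5, at 6.24 and the others between -1.23 and 1.31. Snrpn, the neuronal relative of Snrpb that is expressed from the paternal allele, had probes on both sides. Its probe AK010671 gave -0.61 ± 0.33 and NM_013670 gave 0.25 ± 0.31, and neither passed at an unadjusted p of 0.05.

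The SF3a and SF3b subunits, which hold the U2 snRNP on the branch point, lay near 0 with 1 exception on each side. Sf3b5 (BC006603), a small SF3b subunit, read 1.15, 1.11, 1.00 and 0.86 on replicates 1 to 4 and 0.42, 2.28, 0.86 and 0.39 on replicates 5 to 8. It was positive on all 8 arrays with no split between orientations. Its shared part was 1.01 ± 0.31 (SE, n = 8, limma adjusted p = 0.231). Sf3b1 (NM_031179), the subunit that clasps the branch point helix, had a shared part of -0.93 ± 0.52 (n = 7, limma adjusted p = 0.456). The other 5 subunits had shared parts from -0.03 to 0.23, with Sf3b3 at the class median of 0.16. U2af2 (X64587), which binds the polypyrimidine tract, had a shared part of 0.67 ± 0.31 (limma adjusted p = 0.376) and was positive on 7 of 8 arrays. U2af1 (AK008332), its partner that reads the AG at the intron's end, had one of -0.05 ± 0.31 with values from -1.22 to 0.88.

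The Prpf factors spread to both sides, 4 positive and 5 negative. Prpf8 (AB047391), the large U5 protein at the heart of the spliceosome, read 2.77, 0.36, 1.77 and 0.94 with ethanol RNA in Cy3 and -0.61, 1.04, -0.21 and 0.98 with it in Cy5. The orientations overlapped, and both arrays below 0 were of the Cy5 orientation. In the fit it had a shared part of 0.88 ± 0.36 (SE, n = 8, limma adjusted p = 0.326). Prpf4 (AK005464), a protein of the U4/U6 particle, read -2.08, -2.49 and -1.93 on replicates 1 to 3 and -1.20, 0.79 and -0.08 on replicates 5, 7 and 8, with no ratio on the other 2 arrays. Its orientations did not overlap. It had a shared part of -1.17 ± 0.39 (n = 6, limma adjusted p = 0.263) and a turning part of 1.00 ± 0.39 (adjusted p = 0.312).

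Prpf4b (U48737), a kinase that phosphorylates splicing factors, had a shared part of -1.22 ± 0.65 and a turning part of -1.03 ± 0.65 (limma adjusted p = 0.424 and 0.532). Prpf19 (BC004070), a ubiquitin ligase that activates the spliceosome, had a shared part of 0.76 ± 0.40 (limma adjusted p = 0.416), and Prpf6 (BC014869), a bridge between U5 and U4/U6, had a turning part of -0.54 ± 0.32 with orientations that did not overlap. Prpf3 (BC006782), the partner of Prpf4, stood at the class median with a shared part of -0.05 ± 0.61 and values from -2.41 to 1.70. The remaining Prpf18, Prpf31 and Prpf40b had shared parts of 1.17 ± 0.55, -0.12 ± 0.28 and -0.51 ± 0.45, with no unadjusted p under 0.05.

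The SR proteins were divided evenly, with 6 probes positive and 6 negative and a median shared part of -0.04. Srsf6 (NM_026499), which binds exon enhancer sequences, read 0.95, 0.58, 0.18 and 0.50 on replicates 1 to 4 and 1.53, 1.93, 0.17 and 3.73 on replicates 5 to 8. All 8 arrays were positive, replicate 8 the highest, and the orientations overlapped. Its shared part was 1.20 ± 0.39 (SE, n = 8, limma adjusted p = 0.243). Srsf5 (NM_009159) lay on the other side at -0.98 ± 0.39 (limma adjusted p = 0.313), with negative values on 6 of 8 arrays and 1.51 on replicate 1. Srsf11 (AK002411) had a shared part of -0.95 ± 0.47 and a turning part of 0.90 ± 0.47 (limma adjusted p = 0.398 and 0.446). Srsf3 (NM_013663), the smallest of the family, had a shared part of -0.21 ± 0.49, and Srsf4, Srsf9 and Srsf10 had 0.38 ± 0.29, 0.12 ± 0.36 and -0.61 ± 0.66.

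Srsf1, the founding SR protein, was the member with the largest turning part, but on 1 of its 3 probes. Probe AK017754 read -4.48, 0.47, -2.10 and -3.97 on replicates 1 to 4 and 1.23, 2.33 and 1.53 on replicates 5, 7 and 8. Every Cy5-orientation value lay above every Cy3-orientation value. The turning part was 2.11 ± 0.58 (SE, n = 7, limma adjusted p = 0.133), and 2.61 (adjusted p = 0.0266) without replicate 2. Over the 16 alternatives that could fit this probe the limma adjusted p ran up to 0.286, and in 14 of them it did not pass. Probe AK018176 went the other way with a turning part of -0.97 ± 0.45 (limma adjusted p = 0.381), and AK004255 had one of -0.02 ± 0.36. The 3 probes differed on the same arrays by a median of 1.82 to 2.98 log2 units.

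**Figure D2:**
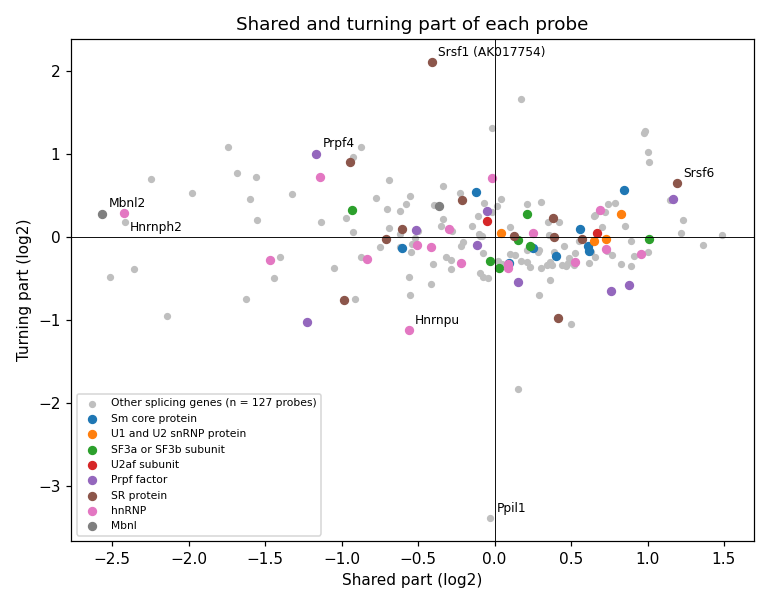
Shared part (horizontal) against turning part (vertical) of the log2 ratio for the 62 member probes, coloured by role, and 127 probes of other splicing genes in grey. Most members lie within 1 log2 unit of 0 on both axes. Mbnl2 and Hnrnph2 stand at the left edge, Srsf1 probe AK017754 at the top, and Ppil1, which is not a member, at the bottom.

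The hnRNPs had a median shared part of -0.22, with 7 probes positive and 10 negative. The close relatives Hnrnph2 and Hnrnph1, which bind runs of G near splice sites, gave the most negative pair. Hnrnph2 (NM_019868) read -5.73, 0.22, -1.30 and -4.05 on replicates 1 to 4 and -3.33, -2.07, -3.17 and 0.04 on replicates 5 to 8. It was below -1 on 6 arrays and near 0 on replicates 2 and 8, with overlapping orientations. The fit put its shared part at -2.42 ± 0.65 (SE, n = 8, limma adjusted p = 0.206). Hnrnph1 (NM_021510) was negative on 7 arrays, from -3.81 to -0.40, and 0.78 on replicate 6. Its shared part was -1.47 ± 0.51 (limma adjusted p = 0.261). Because these genes are near-identical in parts and the probe sequences were not used here, signal of one on the other's probe cannot be told apart from its own.

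Hnrnpu (NM_016805), a scaffold-attachment protein, had the most negative turning part of the members. It read 1.00, 1.56, 0.84 and -1.13 on replicates 1 to 4 and -2.95, -0.03, -2.73 and -1.03 on replicates 5 to 8. The Cy5-orientation arrays were all below 0, and replicate 4 of the Cy3 orientation lay among them. The turning part was -1.13 ± 0.43 (SE, n = 8, limma adjusted p = 0.284). Hnrnpl, which binds CA repeats, had orientations that did not overlap, at 0.72 to 1.04 in Cy3 and -0.38 to 0.61 in Cy5, with a turning part of -0.30 ± 0.27. In all, 4 members had orientations that did not overlap (Srsf1 AK017754, Prpf4, Prpf6 and Hnrnpl), 6.45% against 10.9% of all tested probes.

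Hnrnpdl (NM_016690) lay at the hnRNP median with a shared part of -0.22 ± 0.43. The other hnRNPs, Hnrnpa0, Hnrnpa2b1, Hnrnpc, Hnrnpd, Hnrnpk, Hnrnpll, Hnrnpm and Hnrnpul2, had shared parts from -0.83 to 0.96 and no unadjusted p under 0.05 in the limma fit.

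Mbnl2 (AK003316), which in the brain drives the switch from fetal to adult exon use, had the smallest p of all 62 members. It read -4.41, -1.90, -1.54 and -3.53 on replicates 1 to 4 and -2.99, -2.85, -2.69 and -0.61 on replicates 5 to 8. All 8 arrays were negative, replicate 8 was nearest to 0, and the orientations overlapped. It had a shared part of -2.57 ± 0.43 (SE, n = 8, limma adjusted p = 0.136), a 5.92-fold ratio, and its turning part was 0.28 ± 0.43. With robust regression in limma the adjusted p was 0.0324, and over all alternatives it ran up to 0.373. Mbnl1 (NM_020007), its close relative, read -3.77, 1.60, -0.43 and -0.33 on replicates 1 to 4 and -3.14, 0.30 and 2.87 on replicates 5, 7 and 8. Its values ran to both sides in each orientation, with a shared part of -0.36 ± 0.78 (n = 7, limma adjusted p = 0.863). The difference between these relatives was not tested.

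**Figure D3:**
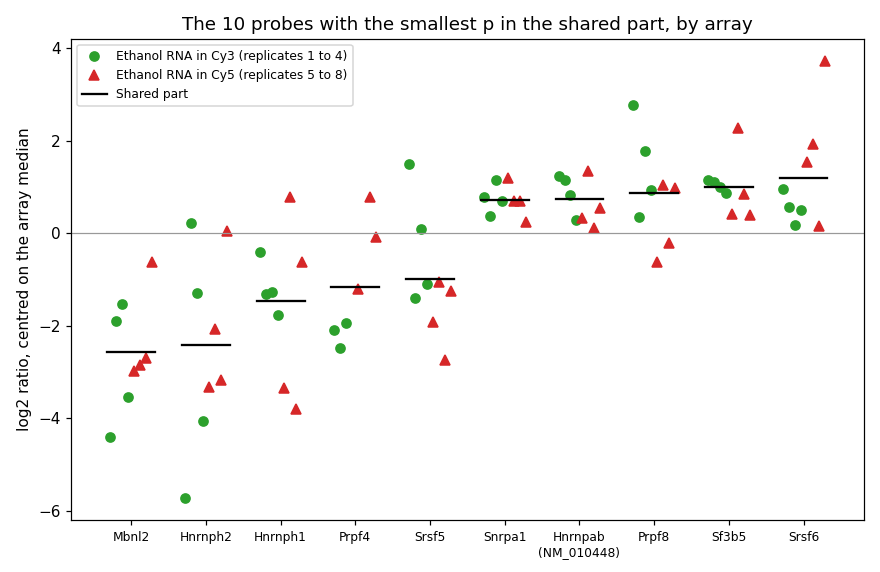
Centred log2 ratio on each array for the 10 member probes with the smallest p in the shared part (circles, ethanol RNA in Cy3; triangles, ethanol RNA in Cy5; bars, shared part). Mbnl2 is below 0 on all 8 arrays, and Sf3b5, Srsf6, Snrpa1 and Hnrnpab probe NM_010448 are above 0 on all 8.

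A sign that held on each array measured was found in 6 members, 9.68% against 3.57% of all tested probes. The share was 8.66% among the 127 probes of other splicing genes, so it was not particular to the members. Those positive throughout were Sf3b5, Srsf6, Snrpa, Snrpa1 and Hnrnpab probe NM_010448, 5 of 62 members against 1.82% of all probes. Mbnl2 was the 1 member negative throughout, against 1.75%. For the Hnrnpab probe the shared part was 0.73 ± 0.29 (SE, n = 8, limma adjusted p = 0.312), and none of the 6 passed the adjusted threshold.

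Genes with more than 1 probe showed how far a member's value depended on the probe. The 2 probes of Hnrnpa1, an abundant hnRNP that opposes SR proteins, had shared parts of 0.09 and 0.08 and differed on the same array by a median of 0.14. Srsf2, an SR protein of nuclear speckles, gave 0.39 and 0.57 with a median array difference of 0.38. Hnrnpab, an RNA-binding protein also studied as CBF-A, gave -1.14 ± 0.52 on AK019387 and 0.73 ± 0.29 on NM_010448. Those probes differed by a median of 2.49 over the 7 arrays that measured both. Over the 5 member genes with several probes the median difference in shared part was 0.82 for 7 pairs of probes, against 0.65 for 748 pairs from 606 genes on the array. Probes of 1 gene share its symbol only, and which transcript each one detects was not analysed here.

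**Figure D4:**
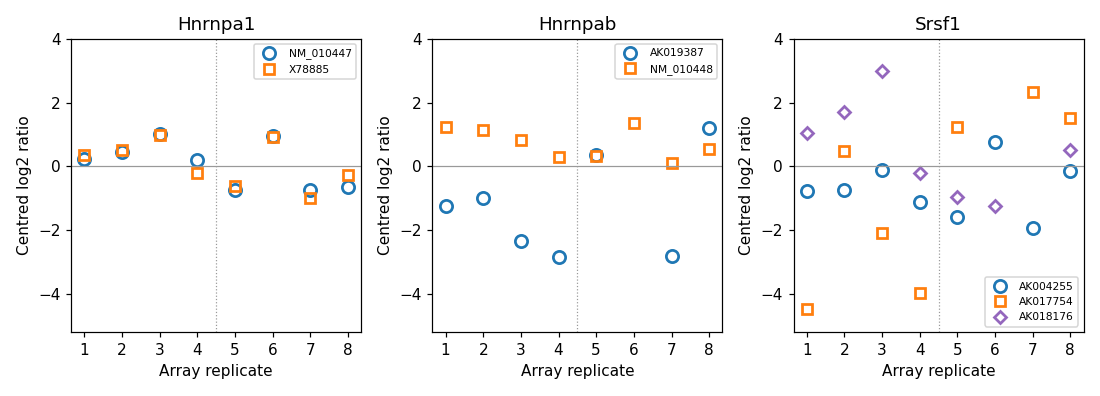
Centred log2 ratio on each array (replicates 1 to 4 with ethanol RNA in Cy3, 5 to 8 in Cy5, divided by the dotted line) for every probe of Hnrnpa1, Hnrnpab and Srsf1. The 2 Hnrnpa1 probes overlie each other, while those of Hnrnpab and Srsf1 part by more than 1 log2 unit on most arrays.

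The median of the members differed between arrays. It was -0.36 on replicate 5, 0.61 on replicate 6 and -0.15 on replicate 7, while the median of all tested probes was -0.13, 0.14 and -0.07. The probes of other splicing genes had medians of -0.46, 0.47 and -0.32 there, so this swing was not particular to the members. Replicate 6 lay more than 1 log2 unit above both replicates 5 and 7 in 22 of 52 members with all 3 values, 42.3% against 25.3% of 12943 probes, and below both by that margin in 0 of 52 members against 13.5%. This comparison was chosen after the values were seen, and the count was not made for the other splicing genes. Without replicate 6 the median shared part of the members was -0.02, of the SR proteins -0.41 and of the hnRNPs -0.41. Across the 62 members, ratios of arrays from different orientations correlated with a mean Pearson r of 0.19 over 16 pairs of arrays (-0.11 to 0.48). The mean was 0.18 across the probes of other splicing genes and -0.08 across all tested probes. Within the Cy3 and Cy5 orientations the means were 0.39 and 0.22 for members, and 0.29 and 0.21 for all tested probes. Genes are not independent replicates and each pair shares its probes, so that these are descriptions.

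**Figure D5:**
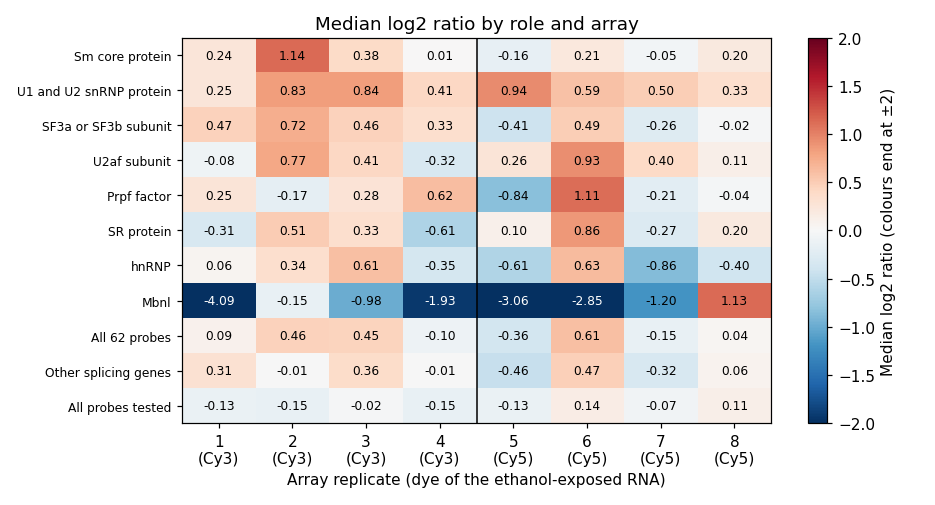
Median centred log2 ratio of each role class on each array, printed in the cell and coloured from blue (negative) to red (positive), with the 127 probes of other splicing genes and all tested probes below. The U1 and U2 row is positive on all 8 arrays, replicate 6 is positive in every row but Mbnl, and the Mbnl cell of replicate 6 rests on Mbnl2 alone.

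Other splicing genes, from a list of 144 genes outside the name rule, were measured by 127 probes for 116 genes. In the shared part 0 of them passed the adjusted threshold in limma, and 34 had an unadjusted p under 0.05, 14 positive and 20 negative, 26.8% against 13.9% of all probes. The 52 probes of spliceosome core and snRNP-specific proteins had a median shared part of 0.33, with 36 positive and 16 negative. The 25 probes of a mixed class, listed as neural and tissue-restricted regulators, had one of -0.50, with 8 positive and 17 negative. That class also held broadly expressed factors such as Tia1, Tial1, Elavl1 and Ptbp1. Its median was the value of a Tial1 probe (NM_009383), so it does not describe neural factors alone. The 32 probes of general RNA-binding regulators had a median of -0.13, and the 18 of kinases and snRNP assembly factors one of -0.21. Ppih, a cyclophilin of the U4/U6 particle, had a shared part of 1.49 ± 0.36 and was positive on all 8 arrays (limma adjusted p = 0.180). Tia1, which promotes the use of exons with weak splice sites, read below 0 on all 8 arrays, with a shared part of -2.52 ± 0.52 (limma adjusted p = 0.160). The shared parts of Clk4, a kinase of SR proteins, Rbm39, a U2AF-related factor, and Ddx46, a helicase of the U2 snRNP, were -1.98 ± 0.42, -2.36 ± 0.51 and -1.63 ± 0.39 (limma adjusted p = 0.164, 0.169 and 0.180).

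In the turning part 1 of the 127 probes passed, 0.787% against 1.56% of all tested probes. At an unadjusted p under 0.05 in limma 6 passed, 4.72% against 13.8%, close to the members' 4.84%. Orientations did not overlap in 5 of the 127, 3.94% against 10.9%. Ppil1 (AK004331), a cyclophilin of the active spliceosome, read 3.41, 2.95, 3.50 and 3.58 with ethanol RNA in Cy3 and -2.16, -6.17, -1.25 and -4.10 with it in Cy5. The orientations had opposite signs on every array. Its turning part was -3.39 ± 0.50 (SE, n = 8, limma adjusted p = 0.0060). Without the 3 arrays whose codes end in r it was -3.19 and did not pass (adjusted p = 0.247). Clns1a, an assembly factor of Sm proteins, Elavl1 probe AK010706, Ddx42 and Lsm4 came next, with turning parts of 1.25 ± 0.39, 1.66 ± 0.59, 1.08 and 1.02 that did not pass. The other Elavl1 probe, NM_010485, had a turning part of -0.05.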

How the data were processed

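The authors deposited 1 log2 ratio per probe and array, with no intensities, and how they corrected background and normalized is not given in the sources used here. On each array, exact 0 (2565 to 5200 values) and the single highest value (108 to 464 probes) were treated as missing, which left 75.4% to 87.1% of probes. The medians ran from -0.435 to 0.516, so each array was centred on its median. Symbols came from the platform annotation: 16635 probes had 1 symbol, 113 several and 4834 none. By Entrez ID 15957 were matched to RefSeq and took its symbol, whether or not it differed. The name rule was applied to the platform symbol. Probes with a value on at least 3 arrays of each dye orientation were fitted in limma 3.58.1 (R 4.3.3) with an orientation mean each, and Benjamini-Hochberg adjustment ran over all 15345. The fit was tested on simulated data. Named probes were those with the 10 smallest p in each part, all Mbnl and U2af probes, the probes of member genes with several, the probe at each class median, and the 5 leading other splicing genes in each part. Beyond that rule, Snrpa, Snrpg, Sf3b1 and Hnrnpl were singled out after their values were seen, and the rest complete their class. The members, lists and rule were chosen with earlier results of these data known, Mbnl2's negative value among them. Alternatives were other centrings, filters, treatments of 0 and of the highest value, robust fits, the 3 arrays whose codes end in r left out or as a block, the array code number as a block, and each array left out. The number of arrays limits the precision.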

Additional observations from a re-analysis of the deposited data

Results flagged for a closer look

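Among 79 sets of 4 arrays of 1 dye orientation, 5 held an array far from the other 3 by Dixon's criterion, and chance alone marks about 1 in 20. For Mbnl2 (AK003316), replicate 8 read -0.613 while the other Cy5-orientation arrays read -2.99 to -2.69. Replicate 6 was the distant array in the other 4 sets. Srsf2 (U14648) read 2.26 there against -0.133 to 0.116, Hnrnpa1 (NM_010447) 0.956 against -0.742 to -0.652, Hnrnpdl (NM_016690) 1.94 against -1.42 to -1.28, and Clns1a (U53455) 4.43 against 1.31 to 1.82. The ratios of Ppil1 (AK004331) differed between the dye orientations, with a turning part of -3.39.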

How the results depend on the processing

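The replicate numbers run from 1 to 8 with no repeat, but code numbers 1, 3 and 5 are each carried by an array of both orientations, and 6 arrays could be fitted with the code number as a replicate block, an alternative chosen after seeing the data. Deviations from the orientation means of arrays with the same code number correlated with r = 0.016, -0.035 and 0.040 across 10486 probes. Pairs with different code numbers ran from -0.083 to 0.072. Deviations within an orientation cancel by construction, so these values cannot tell whether arrays of the same code number share a culture. With the replicate block 0 members passed in either part, 0 other splicing genes passed in the turning part (Ppil1 -2.89, adjusted p = 0.0774, a call made on the same 6 arrays without the block), and 85 of all probes passed there against 113. At an unadjusted p under 0.05 the block left 1 positive and 8 negative members in the shared part and 6 in the turning part, which was 5 on those arrays without it. With and without the block the shared part on these arrays was 0.15 for U2af1, -0.071 for Hnrnpa1 NM_010447 and -0.0030 for Hnrnpa1 X78885. A trend of the prior on the number of values could not be fitted, and a robust prior, chosen after seeing the data, took its place. Over 21 alternatives, the count of members past the adjusted threshold left 0 in the robust fit, with 1 in the shared part (Mbnl2, -2.57, adjusted p = 0.0324) and 1 in the turning part (Srsf1 AK017754, 2.32, adjusted p = 0.0336), and ranged from 0 to 1 in the turning part with each array left out. Across these alternatives the adjusted p of Mbnl2 ran from 0.0324 to 0.373. For the other splicing genes the robust fit called 2 in the shared part (Tia1 and Ybx1, the latter named after its value was seen) and 3 in the turning part (Ppil1, Elavl1 AK010706 and Clns1a). Over all probes that fit called 208 in the shared part and 751 in the turning part, against 0 and 239. Without the 3 arrays whose codes end in r, 0 other splicing genes passed in the turning part, where Ppil1 had -3.19 (adjusted p = 0.247). The members at an unadjusted p under 0.05 in the shared part numbered 6 positive and 5 negative of 62. Without those arrays they numbered 2 and 3 of 50, and the robust fit gave 11 positive of 62. In the turning part they numbered 3, against 8 in the robust fit, 5 with exact 0 kept, 1 with the r arrays left out or a value asked for on all 8, and 0 to 4 with each array left out (0 without replicate 5). With values as deposited the turning part's median over all probes was 0.42, not 0.11, and with exact 0 kept 0.21. The median shared part of members was -0.02 to 0.21 with each array left out, of SR proteins -0.41 to 0.19, of Prpf factors -0.22 to 0.37, of hnRNPs -0.48 to -0.05, of Sm core proteins 0.21 to 0.54 and of U1 and U2 proteins 0.56 to 0.77. Single named probes kept their direction and side of the threshold in 1197 of 1247 alternatives, and those that changed sign had passed no test. In the turning part these were, as deposited and with exact 0 kept, Srsf1 AK004255 (0.29 and 0.22), Snrpn AK010671 (0.18 and 0.10), Snrpn NM_013670 (0.18 and 0.11), Hnrnpab NM_010448 (0.17 and 0.097) and Srsf2 U14648 (0.29 and 0.21). Without the r arrays the turning part was 0.00067 for Snrpn NM_013670 and 0.13 for Srsf2 U14648, and with r as a block it was 0.029 for Srsf1 AK004255. In the shared part the r arrays left out gave 0.18 for U2af1, 0.52 for Prpf3 and 0.017 for Hnrnpdl, the highest value kept gave 1.87 for Prpf3, and the robust fit gave -0.11 for Hnrnpa1 NM_010447. With each array left out, the turning part ran from -0.27 to 0.18 for Srsf1 AK004255, -0.26 to 0.021 for Snrpn NM_013670 and -0.32 to 0.10 for Srsf2 U14648, and the shared part from -0.24 to 0.11 for U2af1, -0.34 to 0.28 for Prpf3, -0.12 to 0.16 for Hnrnpa1 NM_010447, -0.11 to 0.21 for Hnrnpa1 X78885, -0.55 to 0.037 for Srsf3 and -0.75 to 0.15 for Mbnl1. The causes were not tested.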
